A study of Mus musculus with 2 samples.

Results

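The collagen genes were described in Ago2-bound RNA of TM4 cells, an established mouse Sertoli cell line. A gene was counted as a collagen when its symbol had the form of a collagen chain (Col, a number, a, a number), which gave 43 of the 22609 genes in the deposited count tables. By the type of collagen they encode, 11 were fibrillar (types I, II, III, V, XI, XXIV and XXVII), 8 belonged to basement membranes (types IV, XV and XVIII) and 24 were other collagens. The study transfected TM4 cells with a miR-471-5p mimic, a synthetic copy of a microRNA (miRNA), or with a scramble RNA, to look for the mRNAs that the miRNA brings to Ago2. At 48 h the cells, grown in DMEM with serum, were lysed and RNA was precipitated with an antibody to Ago2, the protein that carries miRNAs to their target mRNAs. Each condition had 1 sequenced library, so no difference below has a replicate check and no test was possible. All intervals are 95% exact intervals and cover counting error only. There was also no library of total RNA, so more of an mRNA in the cells and more of it bound to Ago2 cannot be told apart, nor can more cells carrying an mRNA and more of it per cell.

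Collagens are trimers of chains that wind into a triple helix, built on repeats of glycine followed by a pair of other residues. Fibrillar collagens form the load-bearing fibres of connective tissue, type IV collagen forms the sheet of the basement membrane, and the other types link, coat or anchor these structures. In the testis, Sertoli cells and peritubular myoid cells lay down the basement membrane around the seminiferous tubule together. Many collagen mRNAs are known targets of the miR-29 family, which shares a seed (bases 2 to 8 of the mature miRNA) and represses matrix genes in several tissues.

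The mature sequences are shown because the mimic carries the first seed and the collagen 3′-UTRs carry matches to the second. They were taken from RefSeq (GRCm38.p6), 5′ to 3′, with the seed in capitals.
mmu-miR-471-5p: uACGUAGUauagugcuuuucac
mmu-miR-29a-3p: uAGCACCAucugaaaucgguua
mmu-miR-29b-3p: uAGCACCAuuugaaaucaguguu
mmu-miR-29c-3p: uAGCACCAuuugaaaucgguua

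A match to bases 2 to 8 of miR-471-5p (ACTACGT on the mRNA strand) was found in the longest 3′-UTR of 0 of the 43 collagen genes, against 1.56% of 11755 tested genes. Here and below a gene was tested when it had at least 20 reads over both libraries. The same letters occurred once in the coding region of 4 collagens, of which 3 were among the 29 tested, and 4.36% of the tested genes had such a match. Collagen coding regions are long, and per kilobase the letters occurred 0.0201 times in collagens and 0.0246 times over all tested genes. These matches are given with their place on GRCm38 and with the matched bases in capitals, since they hold the letters complementary to the transfected seed.
Col5a1 (chr2:27951378-27951384, + strand): cggggactatgACTACGTgcccccagatg
Col22a1 (chr15:71889553-71889559, - strand): ggggagccgggACTACGTggaccacctgg
Col28a1 (chr6:7998606-7998612, - strand): ggaatgtggcgACTACGTggttcgctggt
Col6a6 (chr9:105781970-105781976, - strand): aaagcgagtttACTACGTccatgagttcg
The log2 ratio of mimic to scramble, taken up by class below, was 0.04 for Col5a1, 0.62 for Col22a1 and 0.74 for Col28a1, whose 40 and 24 reads gave an interval of -0.03 to 1.53. Col6a6 had 0 reads with the mimic and 1 with scramble.

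Matches to the miR-29 seed (TGGTGCT) were found in the 3′-UTR of 24 of the 43 collagens, 40 matches in all. Among tested genes they occurred in 18 of 29 collagens (62.1%) and in 16% of all tested genes. The matches below, shown for abundant or strongly differing chains, are all followed by an A, which makes an 8mer match. The capitals mark the bases that pair with the seed, and 16 collagens had at least 1 such 8mer.
Col1a1 (chr11:94952538-94952544, + strand): gaaggaatttcTGGTGCTatagaagctga
Col3a1 (chr1:45348982-45348988, + strand): aaatgtctcaaTGGTGCTataataaataa
Col5a2 (chr1:45374966-45374972, - strand): tcttttaatgaTGGTGCTaaaattatttc
Col4a1 (chr8:11199762-11199768, - strand): ccgtcacaacaTGGTGCTactcccccccc
Col4a5, match at base 129 of the 3′-UTR (chrX:141688253-141688259, + strand): gctcccaccaaTGGTGCTaatatcctcta
Col4a5, match at base 410 (chrX:141688534-141688540, + strand): attctttttcaTGGTGCTactaatcctaa
Col4a5, match at base 833 (chrX:141688957-141688963, + strand): tcttattattcTGGTGCTatgcaagaatt
Col15a1 (chr4:47312500-47312506, + strand): aatccacatatTGGTGCTagattctgcag
Col6a3 (chr1:90767412-90767418, - strand): acctgtcaataTGGTGCTaaatgtgtcta

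The mimic library held 18628310 reads on genes and the scramble library 18717225, and a count of 0 allows up to 3 reads, or 0.161 and 0.160 counts per 1000000 reads on genes. Over the 12186 tested genes the median log2 ratio of mimic to scramble was -0.00, with quartiles of -0.27 and 0.31. Sertoli cell markers summed to 14473 reads with the mimic and 18276 with scramble over 13 genes, 7 of them tested. They included Sox9 (1228 reads with the mimic and 1070 with scramble), Gata4 (341 and 365) and Kitl (12245 and 16163), a growth factor that makes up most of that sum. Other defining markers were at or near 0, with no read for Fshr, 5 reads in each library for Amh, and 5 and 1 for Cldn11. Fibroblast markers summed to 21210 and 20901 reads over 4 genes. These reads were on Pdgfra (10231 and 10299), Thy1 (7637 and 6952) and Pdgfrb (3342 and 3649), while Tcf21 had 0 reads with the mimic and 1 with scramble. Peritubular myoid markers summed to 73847 and 102796 reads over 5 genes, nearly all of them Acta2 (73076 and 101778). Of the other smooth muscle genes, Actg2 had 747 reads with the mimic and 988 with scramble, and Cnn1 had 11 and 17. Myh11 and Des had 6 and 7 reads in each library. Summed reads of Leydig (84 and 88), germ cell (162 and 171), macrophage (26 and 34) and endothelial markers (50 and 60) were few. Whether these markers have a part in the collagen ratios was not tested.

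TM4 cells carried a broad set of collagen chains. Of the 43 genes, 40 had at least 1 read, 29 had at least 20 over both libraries and 21 had at least 200. Collagens took 237775 reads with the mimic and 197778 with scramble, which is 1.28% (1.27 to 1.28) and 1.06% (1.05 to 1.06) of the reads on genes. Most of these came from few chains: Col1a2 alone held 47.3% of collagen reads with the mimic and 41.2% with scramble, and Col1a1 held 15.6% and 18.8%. Without Col1a2, collagens took 0.67% of the reads on genes with the mimic and 0.62% with scramble. Fibrillar chains made up 79.7% and 78.7% of collagen reads, basement membrane chains 4.61% and 4.0%, and other chains 15.7% and 17.3%.

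Levels were compared between chains per length, as reads per kilobase of the reference transcript per 1000000 reads on genes. On this scale the order at the top was the same in both libraries. Col1a2 led with 1130 with the mimic and 813 with scramble, then Col1a1 with 336 and 335, Col3a1 with 225 and 169, Col6a2 with 169 and 158, and Col6a1 with 125 and 108. Col1a2 was also the gene with the 4th highest read count of all genes in the mimic library and the 6th in the scramble library. The next chains in the order changed places, Col5a1 (53.9 and 52.2) standing above Col5a2 in the mimic library and below it in the scramble library (51.0 and 76.8).

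**Figure D1:**
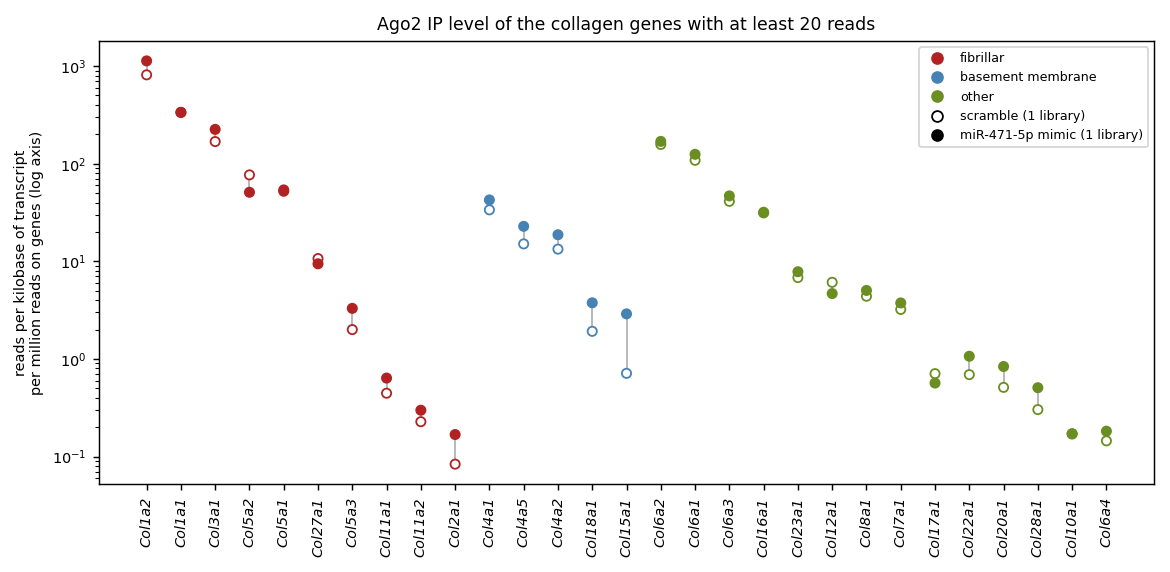
Level of the 29 collagen genes with at least 20 reads, in reads per kilobase of transcript per 1000000 reads on genes (log axis). Open circles show the scramble library, filled circles the mimic library, colours the class, and grey lines join both values of a gene; the largest gap is that of Col15a1, at 2.90 with the mimic and 0.713 with scramble.

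Chains at the other end were absent or nearly so. No read was found for Col9a1, Col9a2 or Col19a1, and 4 genes (Col13a1, Col25a1, Col6a6 and the type IV chain Col4a4) had 1 or 2 reads over both libraries. A further 7 genes had 5 to 19 reads, among them the type IV chains Col4a3 (4 and 1) and Col4a6 (9 and 5). Type IV collagen in these libraries was thus carried by Col4a1, Col4a2 and Col4a5. The type II chain Col2a1 (16 and 8 reads) and the type X chain Col10a1 (10 reads in each library), both known from cartilage, lay just above the minimum of 20.

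Against scramble, the collagens were more often higher than lower in the mimic library, mostly by less than 2-fold. The log2 ratio was above 0 for 23 of the 29 tested chains and below 0 for 6, with a median of 0.32, where 49.9% of all tested genes were above 0. Over the 21 chains with at least 200 reads the median was 0.20. The counting interval lay wholly above 0 for 16 chains, wholly below 0 for 3, and over 0 for 10. Past 2-fold, 1 collagen (Col15a1) was higher and 0 were lower, and among all tested genes 3.96% were 2-fold higher and 3.08% were 2-fold lower. At this threshold the share of collagens was close to that of all genes, so the 2-fold counts are no result about collagens.

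**Figure D2:**
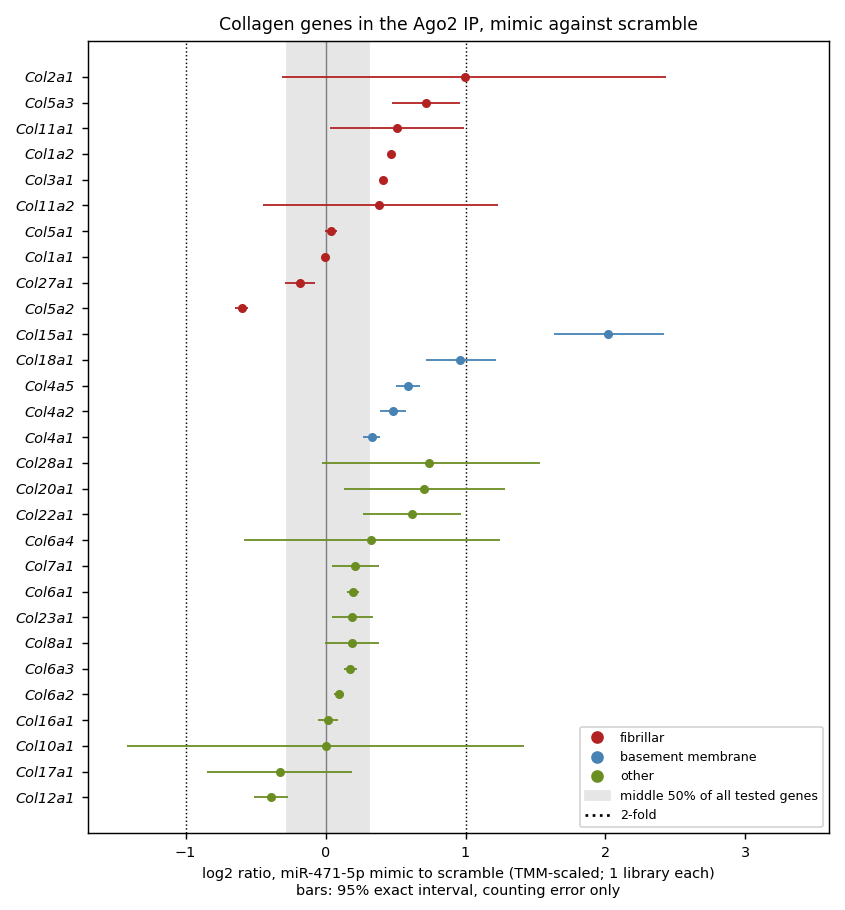
Log2 ratio of mimic to scramble for the 29 tested collagen genes, by class (1 library each). Bars are 95% exact intervals for counting error, the grey band is the middle 50% of all tested genes (-0.27 to 0.31) and dotted lines mark 2-fold; all 5 basement membrane chains lie above 0 and Col15a1 alone lies past 2-fold.

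The basement membrane chains had the highest median of the 3 classes. All 5 tested chains stood above scramble, at a median log2 ratio of 0.59, and their summed reads were 10959 with the mimic and 7906 with scramble (log2 ratio 0.47, interval 0.43 to 0.51). Col4a1 and Col4a2 encode the chains of the common type IV network. Col4a1 had 5245 reads with the mimic and 4172 with scramble, a log2 ratio of 0.33 (0.27 to 0.39). Col4a2 had 2250 and 1611 reads, a log2 ratio of 0.48 (0.39 to 0.57). Both were higher with the mimic, and per length the ratio of Col4a1 to Col4a2 was 2.27 (2.16 to 2.39) with the mimic and 2.53 (2.38 to 2.68) with scramble. Col4a5, a chain of the more specialised type IV networks, had 2779 and 1846 reads, a log2 ratio of 0.59 (0.50 to 0.68).

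Col15a1 stood apart from the other collagens. It encodes the type XV chain, a proteoglycan of the outer face of basement membranes, and had 279 reads with the mimic and 69 with scramble. This is a 4.04-fold difference, a log2 ratio of 2.01 (1.63 to 2.42), at percentile 99.2 of all tested genes. Its nearest relative Col18a1, whose type XVIII chain releases endostatin, had 392 and 201 reads. Its log2 ratio was 0.96 (0.71 to 1.22), just under 2-fold. Among the 5 tested basement membrane chains these were the least abundant, at 2.90 (Col15a1) and 3.76 (Col18a1) in the mimic library against 42.6 for Col4a1 in reads per kilobase per 1000000 reads.

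The fibrillar chains differed among themselves in direction. Of 10 tested, 7 were above 0 and 3 below, with a median log2 ratio of 0.40, and the counting interval lay above 0 for 4 chains and below 0 for 2. The median rested on thinly read chains, and over fibrillar chains with at least 200 reads it was 0.04. Their summed reads were 189575 and 155744 (log2 ratio 0.28, interval 0.27 to 0.29), and without Col1a2 the log2 ratio of the sum was 0.050. Thus most of the surplus of fibrillar reads was on Col1a2.

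Type I collagen is assembled from the products of Col1a1 and Col1a2, which are normally made together. Col1a1 had 37113 reads with the mimic and 37188 with scramble, a log2 ratio of -0.00 (-0.02 to 0.02). Col1a2 had 112585 and 81419 reads, a log2 ratio of 0.47 (0.45 to 0.48). The partner chains thus parted: per length, Col1a2 stood at 3.36 (3.32 to 3.40) times Col1a1 with the mimic and at 2.43 (2.40 to 2.46) times with scramble. Col3a1, the chain of type III collagen, which forms mixed fibres with type I, was on the side of Col1a2, with 23294 and 17549 reads and a log2 ratio of 0.41 (0.38 to 0.44).

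The type V chains, which set the width of type I fibres, took different directions. Col5a1 had 8439 reads with the mimic and 8214 with scramble, a log2 ratio of 0.04 (-0.01 to 0.08). Col5a2, the usual partner of Col5a1, had 6290 and 9525 reads and the lowest log2 ratio of the 29 chains, -0.60 (-0.65 to -0.55). The minor chain Col5a3 had 376 and 229 reads, a log2 ratio of 0.71 (0.47 to 0.96). Per length, Col5a1 to Col5a2 was 1.06 (1.02 to 1.09) with the mimic and 0.680 (0.66 to 0.70) with scramble, so that the more abundant chain of the pair was not the same in both. Col27a1, which encodes a fibrillar chain of cartilage matrix, had 1338 and 1521 reads and a log2 ratio of -0.19 (-0.29 to -0.08). The remaining tested fibrillar chains had few reads, and their log2 ratios ran from 0.38 (Col11a2, 30 and 23 reads) to 1.0 (Col2a1, interval -0.31 to 2.43). Col2a1 lay just under 2-fold and reached it when libraries were scaled by total counts or by DESeq2 size factors.

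**Figure D3:**
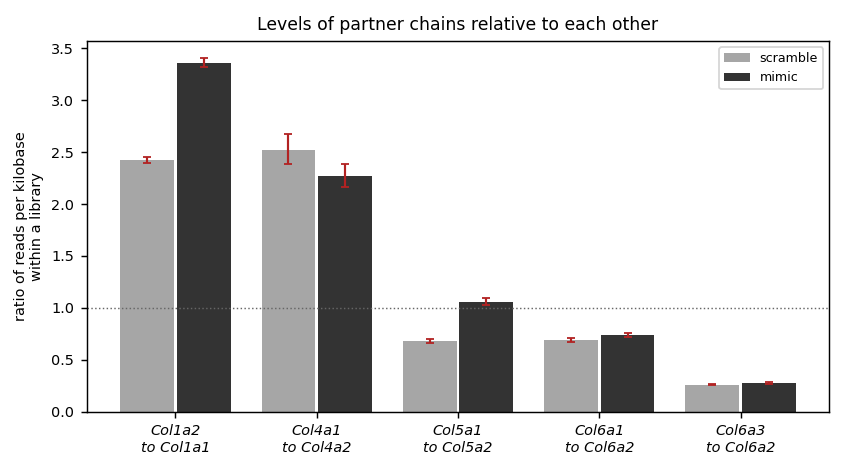
Level of a chain relative to its partner within each library, as a ratio of reads per kilobase of transcript (1 library each; bars start at 0, red bars are 95% exact intervals for counting error). Col1a2 to Col1a1 was 2.43 with scramble and 3.36 with the mimic, and Col5a1 to Col5a2 was 0.680 and 1.06.

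The other collagens mostly differed little between the libraries. Of 14 tested chains, 11 were above 0 and 3 below, with a median log2 ratio of 0.19, and their summed reads were 37241 and 34128 (log2 ratio 0.13, interval 0.10 to 0.15). Type VI collagen, which forms beaded filaments around cells, supplied most of these reads. Col6a1 had 9532 reads with the mimic and 8315 with scramble (log2 ratio 0.20, interval 0.15 to 0.24). Col6a2 had 12450 and 11648 (log2 ratio 0.10, interval 0.06 to 0.13). Col6a3 had 8809 and 7790 (log2 ratio 0.18, interval 0.13 to 0.22). These partner chains were alike in their ratios, unlike those of types I and V: per length, Col6a1 to Col6a2 was 0.737 (0.718 to 0.757) with the mimic and 0.688 (0.668 to 0.707) with scramble.

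The chains that coat fibrils (the FACIT group) were mixed. Col12a1, which encodes a long FACIT chain of dense connective tissue, had 1003 and 1314 reads, a log2 ratio of -0.39 (-0.51 to -0.27). Col16a1, another FACIT chain, had 3087 and 3053, a log2 ratio of 0.02 (-0.06 to 0.09). Col22a1, known from tissue junctions, had 175 and 114, a log2 ratio of 0.62 (0.27 to 0.97). Col20a1, a FACIT chain with few reads, had 70 and 43, a log2 ratio of 0.70 (0.13 to 1.29). Of the 4 tested chains 3 were above 0, with a median of 0.32, while the log2 ratio of reads summed over the group, most of them on Col16a1 and Col12a1, was -0.06.

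Among the chains with other roles, those with at least 200 reads all lay near 0.20. Col7a1, the chain of anchoring fibrils, had 646 and 557 reads and a log2 ratio of 0.21 (0.05 to 0.38). Col8a1, a network-forming chain of subendothelial matrix, had 479 and 420 and a log2 ratio of 0.19 (-0.00 to 0.38). Col23a1, a transmembrane collagen, had 825 and 722 and a log2 ratio of 0.19 (0.05 to 0.34). The intervals of Col7a1 and Col23a1 lay above 0 and that of Col8a1 reached it.

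Transcript length moved with the ratio over all genes, and collagen transcripts are long. With tested genes split by length into 5 bins of like size, from shortest to longest, the median log2 ratio was 0.33, 0.08, -0.02, -0.13 and -0.23. The tested collagens had a median transcript of 5658 bases against 3014 over all tested genes, and a median GC content of 56.7% against 50.5%. A fit of the log2 ratio on length and GC over 11770 genes explained 15.2% of its variance. It gave collagens a median value of -0.13, so the measured ratios were mostly above those of genes of like length. After subtraction of the fitted value, 25 of 29 chains were above 0, and the medians were 0.82 for basement membrane, 0.49 for fibrillar and 0.36 for other chains, against -0.02 for all tested genes. Subtraction brought Col12a1 from -0.39 to -0.00 and Col27a1 from -0.19 to -0.01, while Col5a2 stayed below 0 at -0.35. Why the ratio varies with length was not tested.

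**Figure D4:**
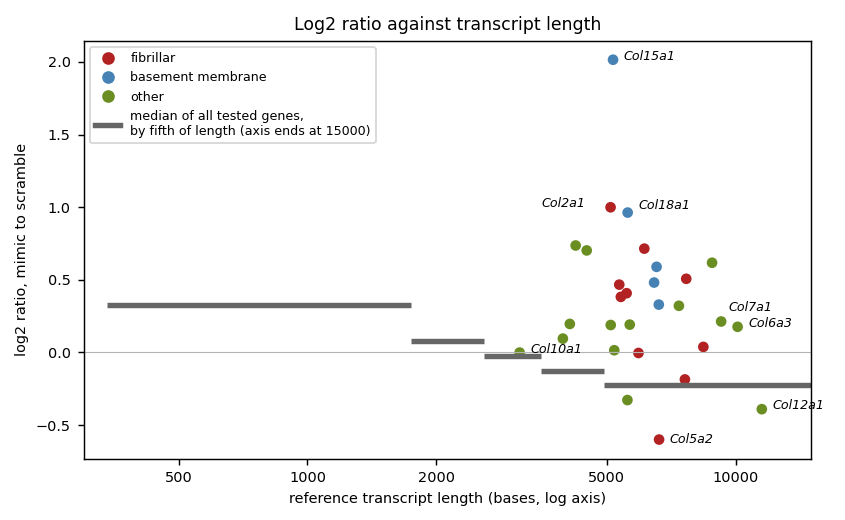
Log2 ratio of mimic to scramble against reference transcript length (log axis) for the 29 tested collagens, coloured by class, with the median of all tested genes in each of 5 bins of length as grey bars. The bars step down from 0.33 to -0.23, and most collagens, all at least 3130 bases long, lie above the bar at their length.

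The miR-29 matches followed the collagen classes. They were found in the 3′-UTR of 6 of 6 type IV genes, in 9 of 11 fibrillar genes and in 8 of 24 other collagens. Col4a5 had 3 matches, all of them 8mers, and Col5a1 had 4. Col1a2 and Col18a1 had none of these 7 letters in the 3′-UTR, in contrast to their partner Col1a1 and relative Col15a1 with 1 each. Chains with and without a match had similar ratios: the median log2 ratio was 0.27 over the 18 tested collagens with a match (range -0.60 to 2.01) and 0.32 over the 11 without one (range -0.39 to 0.96). Over all tested genes these medians were -0.08 and 0.02. None of these medians was adjusted for transcript length, which also moved with the ratio. Whether the matches have a part in them was not tested.

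**Figure D5:**
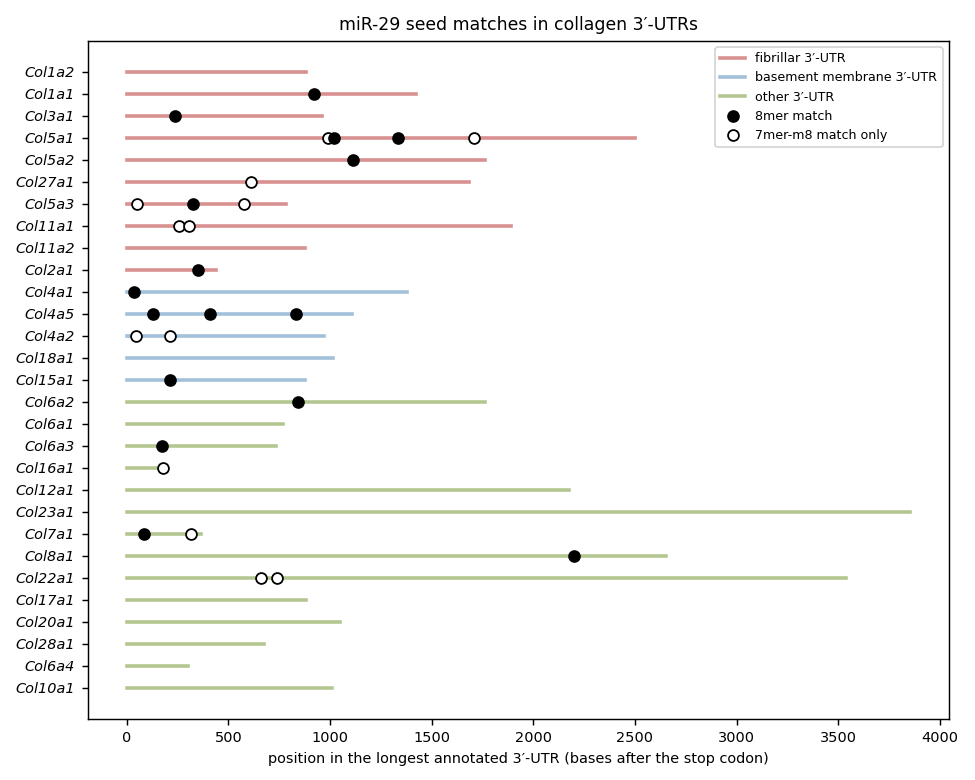
Matches to the miR-29 seed along the longest annotated 3′-UTR of the 29 collagens with at least 20 reads (x axis, bases after the stop codon; lines are 3′-UTRs, coloured by class). Filled circles are 8mer matches and open circles 7mer matches without the following A; Col5a1 has 4 matches, Col4a5 has 3, and Col1a2 and Col18a1 have none.

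The same letters were also frequent inside collagen coding regions. They occurred 106 times in 25 of the 43 genes, or 0.533 times per kilobase, against 0.144 over all tested genes. Of these, 94 lay in frame as GGT GCT, the codons of glycine and alanine, a step that recurs in the collagen helix. Col1a1 had 21 and Col1a2 had 16. A match is a description of the letters and not evidence of a site.

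Genes that build and handle collagen were mixed. Of 18 tested modifying enzymes and chaperones, 1 was 2-fold higher and 1 was 2-fold lower, near the shares over all tested genes (3.96% and 3.08%), with a median log2 ratio of 0.13. Those with the most reads were P4hb, a subunit of prolyl 4-hydroxylase, with 18888 and 15903 reads (log2 ratio 0.25), and Serpinh1, the collagen chaperone HSP47, with 17171 and 13718 (log2 ratio 0.32). Plod2, which hydroxylates lysines of the telopeptides, had 1851 and 907 reads, a log2 ratio of 1.03 (0.91 to 1.14). Leprel1, a prolyl 3-hydroxylase now named P3h2, had 238 and 499, a log2 ratio of -1.07 (-1.30 to -0.84).

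Of 10 tested genes of procollagen secretion and processing, 1 was 2-fold higher and 1 was 2-fold lower, beside 3.96% and 3.08% of all tested genes. The median log2 ratio was -0.21. After subtraction of the value fitted on length and GC it was -0.11, with 8 genes below 0. Pcolce, which enhances cleavage of the C-propeptide, had 19965 and 16955 reads (log2 ratio 0.24), and the coat protein gene Sec23a had 2791 and 4166 (log2 ratio -0.58). The genes past 2-fold were thinly covered. Adamts3, an N-propeptidase, had 23 and 11 reads, a log2 ratio of 1.06 (-0.03 to 2.25), and Tll1, a tolloid protease, had 18 and 48, a log2 ratio of -1.42 (-2.28 to -0.61). Of the 6 crosslinking genes, 0 were past 2-fold and the median was -0.06, with Lox at 27902 and 31364 reads (log2 ratio -0.17) and Loxl2 at 5375 and 4684 (0.20).

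Collagen receptors were mixed once length was taken into account. Of 7 tested, 5 were below 0 and the median log2 ratio was -0.06. Itga1 alone was 2-fold lower, 1 gene beside a share of 3.08% over all tested genes. After subtraction of the value fitted on length and GC, 3 were below 0, the median was 0.01 and Itga1 was at -0.85, within 2-fold. Itga1, the integrin subunit that binds type IV collagen, had 233 reads with the mimic and 554 with scramble, a log2 ratio of -1.25 (-1.48 to -1.03). Its partner Itgb1 had 13414 and 22643, a log2 ratio of -0.76 (-0.79 to -0.73). Ddr2, a receptor kinase for fibrillar collagen, had 6330 and 6615, a log2 ratio of -0.06 (-0.11 to -0.01).

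Among the genes of proteins that lie beside collagens, Thbs1 had a lower log2 ratio than any tested chain. Dcn lay within the interval of Col15a1, the highest chain. Of 11 tested basement membrane partners the median log2 ratio was 0.04 and 0 were 2-fold lower. After subtraction of the value fitted on length and GC their median was 0.23, with 9 above 0 and 2 below. Nid1, which links laminin to type IV collagen, had 8865 and 5711 reads (log2 ratio 0.63, interval 0.59 to 0.68), and the perlecan gene Hspg2 had 4534 and 3878 (0.22). Of 12 tested fibril partners the median was 0.21, and 0.25 after that fit. Among them 1 gene was 2-fold higher and 1 lower, beside 3.96% and 3.08% of all tested genes. With a list this short, 1 gene each way is no result about the list. The higher one was Dcn, encoding decorin, a small proteoglycan that binds type I fibres, with 3478 and 839 reads and a log2 ratio of 2.05 (1.94 to 2.16). The lower one was Thbs1, encoding thrombospondin 1, with 6133 and 12321 reads and a log2 ratio of -1.01 (-1.05 to -0.96), and -0.80 after the length and GC fit. The most abundant of these partners, Sparc (78223 and 81117 reads, log2 ratio -0.05) and Bgn (57074 and 43538, 0.39), lay closer to 0.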

How the data were processed

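Ago2-bound RNA was sequenced from 1 mimic-transfected and 1 scramble-transfected TM4 culture. For each gene symbol the authors deposited an unnormalised read count. Per the labels, their processing notes name CASAVA 1.8.2, TopHat2 2.0.8b, HTSeq and genome build mm9. The annotation and strand setting were not given in the sources used here. The 5 summary rows were left out of library sizes, and 39.8% and 35.6% of entries were reads aligned to several places. Library sizes were adjusted by edgeR 4.0.16 with TMM (R 4.3.3; factors 1.0026 and 0.9974), and the scaling was tested on simulated data. A gene entered the comparison if its counts summed to 20 or more. Intervals are exact Clopper-Pearson intervals (scipy 1.17.1) of the mimic share. No dispersion can be estimated from 1 library per group, so no p-value is given. Transcript lengths, 3′-UTRs, coding regions and coordinates came from GENCODE M21 on GRCm38, not from the build of the counts, and were matched by symbol. The length used was that of the transcript whose coding region is longest. All collagens with at least 200 counts, those past 2-fold, and per partner list the genes past 2-fold plus the pair with the most reads were named. Other genes named were chosen after their values were seen. The members and the lists of partners and markers were chosen with earlier results of these data known. Values of some listed partner and marker genes are not reported here.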

Additional observations from a re-analysis of the deposited data

Results flagged for a closer look

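Outside the gene counts, 39.85% of entries with the mimic and 35.6% with scramble were reads that aligned to several places, a value that enters none of the collagen ratios.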

How the results depend on the processing

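Of 82 alternatives computed, 68 stayed within 1.5 times the count or within an interval, 14 moved and 0 reversed a direction. For medians this interval ran from the median of the members' lower bounds to that of their upper bounds. It is wide and is not a counting interval of the median. By it the fibrillar median (0.40, bounds -0.01 to 0.46) was taken as staying at 0.04 with at least 200 counts. Of the 40 for classes and counts, 26 stayed. For the 21 collagen genes with at least 200 counts, the 42 alternatives were other scalings only. Another scaling shifted log2 ratios by at most 0.0075, so that none of the 42 moved is no check of these genes. The length and GC fit was not among the 42, and it took Col12a1 from -0.39 (-0.51 to -0.27) to -0.00, outside its interval. The count of collagens 2-fold higher, 1 as reported, was 2 with DESeq2 (1.42.0) size factors and 2 with total counts, both through Col2a1 (16 and 8 reads), 3 with no count filter, 8 at 1.5-fold and 3 after the length and GC fit. The count 2-fold lower, 0 as reported, was 2 with no filter and 1 at 1.5-fold. The shares of all genes under these other settings were not computed, so these counts are no result about collagens. The genes added with no filter had very few reads. Col13a1 (1 with the mimic and 0 with scramble) and Col4a3 (4 and 1) were added as higher, and Col6a6 and Col25a1 (0 and 1 each) as lower. After the length and GC fit the medians were 0.48 for all collagens, 0.49 for fibrillar, 0.82 for basement membrane and 0.36 for other chains. With at least 200 counts they were 0.20, 0.04, 0.59 and 0.19. Type IV alone gave a median of 0.48. The log2 ratio of summed reads was 0.050 for fibrillar chains leaving out Col1a2 and 0.61 for basement membrane chains leaving out Col4a1. No paired analysis was possible because each condition had 1 library, and for the same reason no replicate could be left out. Depth limited the 14 collagens under 20 counts, for which a difference was not detectable.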

Other observations

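Several collagen genes lie side by side on the chromosome, and such neighbours did not always have like ratios. On GRCm38, Col3a1 (chr1:45311538-45349706, + strand) and Col5a2 (chr1:45374321-45503282, - strand) point towards each other with a gap of 24614 bases, and their log2 ratios were 0.41 and -0.60. Col4a1 (chr8:11198423-11312826, - strand) and Col4a2 (chr8:11312805-11449287, + strand) share a start region with an annotated overlap of 22 bases, and both were higher in the mimic library, at 0.33 and 0.48. Col4a6 and Col4a5, which lie 1308 bases apart on chromosome X and also point away from each other, differed in level, with 14 reads over both libraries for Col4a6, too few to compare its ratio, and 4625 for Col4a5. Col6a2 and Col6a1, 85161 bases apart on chromosome 10, had log2 ratios of 0.10 and 0.20. Of the 43 collagens, 13 share at least 1 annotated exon base with another gene, at most 3.92% of the transcript for a tested chain. With the strand setting of the counting not given, reads in these stretches cannot be told apart.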
